A study of Drosophila melanogaster with 6 samples.

Results

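RNA interference against Hlc, a DEAD-box RNA helicase, was compared with a control knockdown in Drosophila melanogaster S2 cells, using 1 of the study's 2 double-stranded RNAs (dsRNAs) against the gene, labelled dsRNA 2. The comparison took, by their column names, the 2 libraries treated with Hlc dsRNA 2 and the 2 libraries treated with dsRNA against beta-galactosidase (beta-gal), which are 4 of the 6 libraries of the series. The remaining 2 libraries received Hlc dsRNA 3, a further dsRNA against the same gene, and were used for a direct comparison between the dsRNAs. All 6 libraries share the S2 line, exposure to a dsRNA and sampling on day 3, and differ by which dsRNA the cells received. S2 cells take up dsRNA from the medium and cut it into short RNAs that direct cleavage of matching transcripts. Poly(A) RNA was counted over 23882 annotated features, and the comparison runs across all of them. Of these, 14635 had a count above 0 with dsRNA 2, 13956 had one in the controls, and 11293 passed the filter on low counts and were tested.

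DEAD-box helicases use ATP to open short RNA duplexes and to strip proteins from RNA, and members of the family act in ribosome assembly, splicing, RNA export and translation. S2 cells descend from late embryos and resemble plasmatocytes, the phagocytic blood cells of the fly. They carry both humoral immune pathways, Imd and Toll, in which receptors for bacterial wall fragments lead to NF-kB factors that switch on antimicrobial peptide genes. Heat shock genes are a classic case of rapid induction in these cells, because an RNA polymerase waits just downstream of their start sites before any stress. The series is about the part of Hlc in the transcription of stress-responsive genes.

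Library totals were 71563233 and 56195472 counts with dsRNA 2, against 64881683 and 77803482 in the controls. The study's design text calls the 2 libraries of a group biological replicates without saying whether they came from separate cultures, so the p-values measure the spread between these libraries. The scaling matters for direction. The trimmed-mean (TMM) factors rescale totals by a trimmed mean of log ratios over features. They were 1.15 and 1.13 with dsRNA 2, against 0.751 and 0.778 in the controls. The method takes most features as unchanged, while 60.7% of the tested features were called, so the scale itself is uncertain. With TMM the median log2 fold change of all tested features was 0.04, and with library size alone it was 0.62, so a direction below is one relative to the TMM scale and is qualified where another scaling turned it. Levels are given as CPM, counts scaled to the TMM-adjusted library size, which compare libraries within a gene and not genes with each other.

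The target was low in both libraries that received its dsRNA. On assembly BDGP6.54 the gene lies on the minus strand of chromosome X between 21385518 and 21387946, and Hlc (FBgn0001565) stood at 16.1 and 19.7 CPM with dsRNA 2, against 317 and 316 CPM in the controls (log2 fold change -4.15, SE 0.10, adjusted p 1.86e-07, edgeR's quasi-likelihood test with Benjamini-Hochberg adjustment). Every library thus went with its label for the target, and the SE here and below is the scale implied by that test.

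The labels give the cell type as embryonic stem cells from embryos, and the markers fixed for blood cells were examined in both groups. Of 11 plasmatocyte markers 10 passed the filter and NimC1, a phagocytic receptor, did not, and their summed level was 11462 and 11263 CPM with dsRNA 2, against 6446 and 6093 CPM in the controls. Of 8 lamellocyte markers 7 were tested, with a summed level of 1411 and 1389.9 CPM with dsRNA 2, against 2464 and 2493 CPM in the controls. Of the 4 crystal cell markers lz alone was tested and was nearly absent, at 0.158 and 0 CPM with dsRNA 2, against 0.369 and 0.529 CPM in the controls, while peb, PPO1 and PPO2 did not pass the filter. Libraries of whole cultures cannot tell fewer cells of a type from less RNA per cell, and the part of cell composition in the results below was not tested.

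Most of the measured transcriptome differed between Hlc dsRNA 2 and control. At an adjusted p under 0.05, 6852 of 11293 features were called (60.7%), of which 3431 were higher (30.4%) and 3421 lower (30.3%) with dsRNA 2. The counts of rises and falls in each list below are to be read beside the shares of 30.4% higher and 30.3% lower. No test of a list against these shares is given. More than 2-fold changes were called in 1644 features that rose (14.6%) and 1386 that fell (12.3%). By fitted values, with no limit on counts, 353 features fell and 227 rose beyond 3 on the log2 scale. Beyond 5 the numbers were 126 and 119. Fitted values run far out where a group is at or near 0 counts, so these numbers include features whose size of change is poorly known. Both dsRNA 2 libraries lay outside the range of both controls in 9213 tested features, and in 6851 of the 6852 called. Separate groups are thus nearly certain for a called gene, and where stated below they add little to the call. The balance of rises and falls rested on the scaling, because library size alone called 6038 higher and 1619 lower, and upper-quartile factors 4068 higher and 2899 lower.

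The direction also changed with the level of the transcript, as measured on the TMM scale. Library size alone moved the median of all tested features from 0.04 to 0.62. The level at which the balance of rises and falls turned therefore holds for the TMM scale only. Among 673 features averaging over 256 CPM across the 6 libraries, 463 fell and 128 rose, with a median log2 fold change of -0.64. Among 2139 features between 64 and 256 CPM, 1073 fell and 624 rose (median -0.19). The balance turned below that level, with 1225 higher and 1045 lower among 3148 features from 16 to 64 CPM (median 0.05), and 614 higher and 358 lower among 1445 features from 4 to 16 CPM (median 0.25). The median stayed within 0.11 of 0 in each of 5 equal classes of coding genes by exonic length, between -0.11 and 0.09, so no comparable lean was seen with length.

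**Figure D1:**
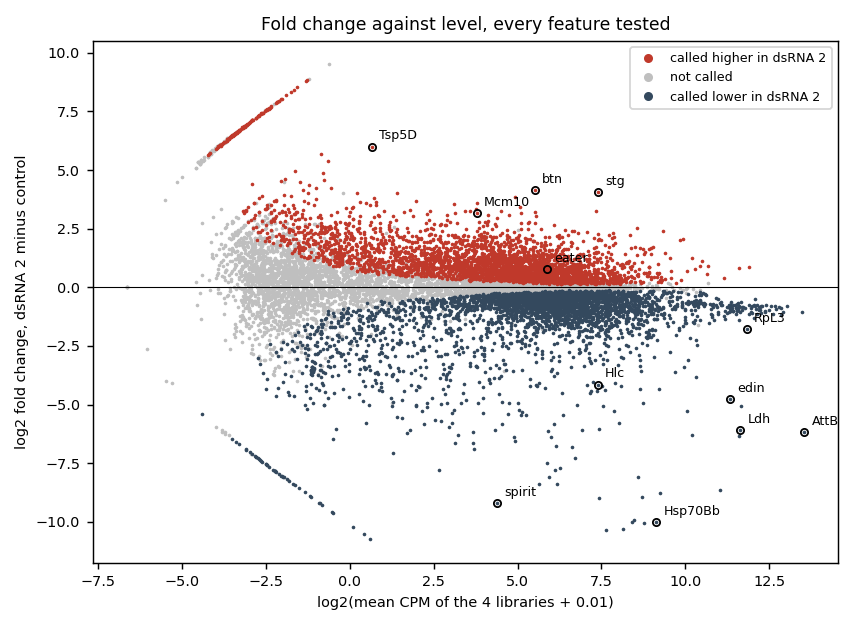
Each point is 1 of the 11293 tested features, placed by its log2 mean CPM over the 2 dsRNA 2 and 2 control libraries and by its log2 fold change, dsRNA 2 minus control, with called features in colour and 12 genes ringed. Features at the highest levels lie mostly below 0, the Hsp70 and AttB points lie far below, and the diagonal lines of points at low level are features at 0 in 1 of the groups, whose fitted values are not bounds.

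The deepest falls among genes with a symbol and at least 50 counts in the higher group were in the Hsp70 genes, which code for the main inducible chaperone of the heat shock response. Hsp70Bb stood at 0.951 and 1.23 CPM with dsRNA 2, against 1112 and 1135 CPM in the controls (log2 fold change -10.02, SE 0.11, adjusted p 1.14e-08). Hsp70Ba stood at 0.329 and 0.269 CPM with dsRNA 2, against 376 and 421 CPM in the controls (log2 fold change -10.36). The other 4 copies had log2 fold changes of -10.33 for Hsp70Bc, -10.07 for Hsp70Bbb, -10.02 for Hsp70Aa and -9.95 for Hsp70Ab. Both dsRNA 2 libraries were near 1 CPM or below for all 6 copies and every control library was far above them. The copies are nearly identical in sequence, so how reads were divided among them is uncertain.

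The other 4 of the 10 largest falls had almost no counts left. Hdc, the histidine decarboxylase that makes histamine, had 0 counts over both dsRNA 2 libraries against 152 over both controls, which makes it at least 67.6-fold lower when 3 counts are allowed for the group at 0. Hsp67Bc, a small heat shock gene, had 0 counts against 121 and was at least 53.8-fold lower, and comm2, a relative of the axon guidance gene comm, had 0 against 114 and was at least 50.7-fold lower. spirit, a serine protease upstream of the Toll ligand, had 10 counts against 4562, a ratio of control to dsRNA 2 of 609 (95% counting interval 331 to 1270.4). All its dsRNA 2 counts were in replicate 2, and without replicate 1 the fitted log2 fold change was -8.04, against -9.20 with all libraries. Without replicate 2 the group stood at 0. In all, 8 features with 100 or more control counts were at 0 in both dsRNA 2 libraries, and 4 features with 100 or more dsRNA 2 counts were at 0 in both controls.

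Of the 10 largest rises, 5 were in genes with counts in every control library. stg (String), the fly Cdc25, whose phosphatase activity lets cells enter mitosis, stood at 319.6 and 314 CPM with dsRNA 2, against 19.2 and 19.2 CPM in the controls (log2 fold change 4.05, SE 0.08, adjusted p 1.00e-07). btn, a homeobox gene, stood at 84.6 and 88.3 CPM with dsRNA 2, against 5.09 and 4.73 CPM in the controls (log2 fold change 4.14, SE 0.09). aos (Argos), which binds and blocks the ligand of the EGF receptor, stood at 56.5 and 56.7 CPM with dsRNA 2, against 4.33 and 3.49 CPM in the controls (3.86). In these 3 genes both dsRNA 2 libraries lay far above both controls. glob1, a globin, had 23.5 and 27.3 CPM with dsRNA 2, against 1.62 and 2.60 CPM in the controls (3.58), and Syn1, a syntrophin, had 5.63 and 4.41 CPM with dsRNA 2, against 0.411 and 0.215 CPM in the controls (4.03). The largest changes were taken only from genes whose groups did not overlap, so their separation was set by the choice.

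The other 5 of the 10 largest rises had almost no control counts, and in each of them 1 control library held all of those counts. Tsp5D, a tetraspanin, had 453 counts with dsRNA 2 against 5, a ratio of 67.9 (95% counting interval 28.9 to 210.1), and its log2 fold change was 4.89 without control replicate 2. GABA-B-R2, a subunit of the metabotropic GABA receptor, had 178 against 3, a ratio of 44.5 (95% counting interval 15 to 218), and 4.28 without that library. TM4SF, also a tetraspanin, had 160 against 5, a ratio of 24.0 (95% counting interval 10.1 to 74.9), and snoRNA:229 had 134 against 5, a ratio of 20.1 (95% counting interval 8.40 to 62.9). mir-2a-2 had 102 against 6, a ratio of 12.7 (95% counting interval 5.66 to 35.5), but overlaps other genes over 61.1% of its exonic length, so its counts may belong to those genes. The log2 fold changes were 3.72 for TM4SF and 2.80 for mir-2a-2 without control replicate 1, and 3.15 for snoRNA:229 without control replicate 2.

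**Figure D2:**
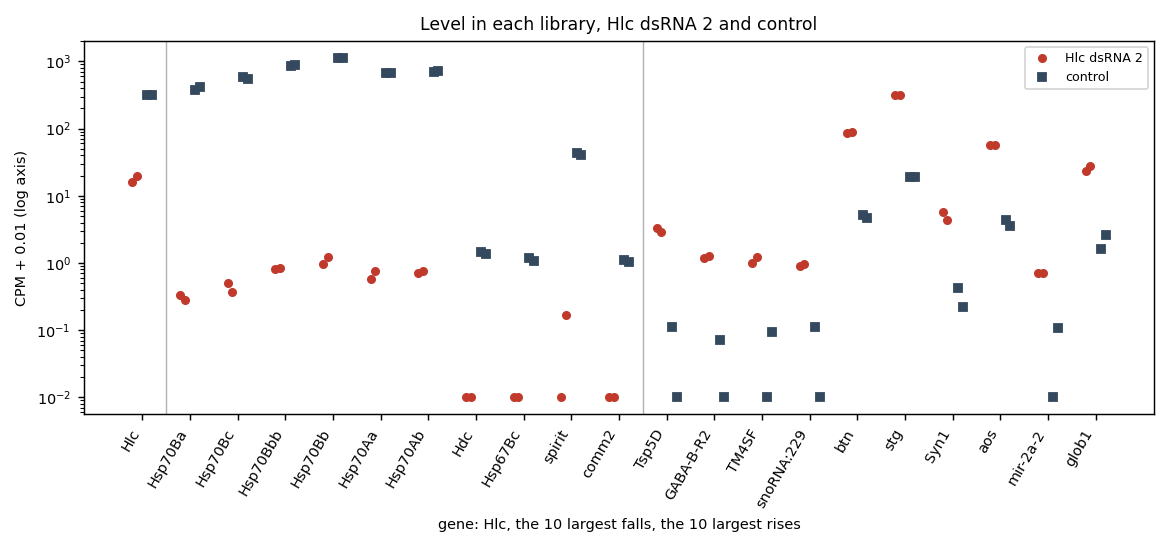
Level of Hlc and of the 10 largest falls and rises named by the rule, in CPM plus 0.01 on a log axis, with 1 point per library (circles for dsRNA 2 on the left of each gene, squares for control on the right). Points at 0.01 are libraries at 0 counts. The rule took falls and rises only from genes with both dsRNA 2 libraries on the same side of both controls, so their separation was set by the choice.

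Heat shock genes fell throughout. All 19 members of the list were called lower, against 30.3% of all tested features, with a median log2 fold change of -6.83, or -5.75 when members at 0 counts are put at their bound. Together they took 0.259% and 0.256% of all counts with dsRNA 2, against 0.860% and 0.870% in the controls. Among the small heat shock proteins, which hold unfolded proteins in solution, Hsp26 stood at 2.83 and 2.81 CPM with dsRNA 2, against 767 and 775 CPM in the controls (log2 fold change -8.09, SE 0.10, adjusted p 1.34e-08), and the falls of Hsp22, Hsp23 and Hsp27 were -6.83, -6.05 and -5.05 on the log2 scale. Hsp22 overlaps other genes over 100% of its exonic length, so its counts may belong to those genes. The list median of -6.83 is the value of Hsp22. Hsp67Ba had 0 counts against 33 and was at least 14.7-fold lower, and 30 of those counts were in control replicate 1. Hsp67Ba overlaps other genes over 75.9% of its exonic length, and it was not called without that library (adjusted p 0.163) or in 4 other alternative fits. Hsp68, a relative of Hsp70, stood at 17.8 and 18.0 CPM with dsRNA 2, against 373 and 372 CPM in the controls (-4.38). In Hsp26 and Hsp68 the highest dsRNA 2 library was far below the lowest control.

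Several members had smaller falls. Hsp83, the fly Hsp90, stood at 1519 and 1520.2 CPM with dsRNA 2, against 3404 and 3158 CPM in the controls (log2 fold change -1.11, SE 0.06, adjusted p 7.37e-06). Hsp60A, the mitochondrial chaperonin, was at -0.83, and the noncoding RNA lncRNA:Hsromega at -1.01. Hsf, the transcription factor that drives the response, stood at 66.9 and 64.2 CPM with dsRNA 2, against 279 and 283 CPM in the controls (-2.10). The co-chaperone DnaJ-1 was at -1.91, and stv, also a co-chaperone, at -4.90. Both dsRNA 2 libraries lay below both controls for every gene named here, and library size alone left all 19 members lower.

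Antimicrobial peptide genes, the effectors of the Imd and Toll pathways, made up 0.108% and 0.106% of all counts with dsRNA 2, against 3.95% and 4.03% in the controls. Of 15 members 14 fell and 1 rose, with a median log2 fold change of -6.11. AttB, an attacin directed at Gram-negative bacteria, stood at 330.5 and 324 CPM with dsRNA 2, against 23687 and 23300 CPM in the controls (log2 fold change -6.17, SE 0.08, adjusted p 1.38e-08), and reads of AttA, a near-identical copy at -6.33, may count for it. AttC stood at 2.45 and 3.03 CPM with dsRNA 2, against 1240.3 and 1164 CPM in the controls (-8.79). AttD, an attacin without a secretion signal, stood at 10.1 and 10.8 CPM with dsRNA 2, against 4228 and 4101 CPM in the controls (-8.64). In each of these attacins the libraries fell into separate ranges with the controls at the high end.

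The cecropin CecA1 stood at 189 and 187 CPM with dsRNA 2, against 6263 and 6305 CPM in the controls (log2 fold change -5.06, SE 0.10, adjusted p 9.72e-08), and CecA2 and CecB were at -6.55 and -4.09. The diptericins DptA and DptB were at -6.40 and -6.31, and drosocin (Dro) at -5.28, all classic Imd targets. Drosomycin (Drs), an antifungal peptide and the standard reporter of Toll, stood at 26.3 and 26.5 CPM with dsRNA 2, against 845 and 792 CPM in the controls (-4.95), with metchnikowin (Mtk) at -6.11 and defensin (Def) at -4.92. The cecropin CecC was the exception, at 17.3 and 18.9 CPM with dsRNA 2, against 14.4 and 13.6 CPM in the controls (log2 fold change 0.37, SE 0.12, adjusted p 0.035). Its small rise was not called in any of the 4 fits that left out 1 dsRNA 2 or control library, nor with the replicate block, and its groups did not overlap.

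Recognition proteins that bind bacterial peptidoglycan or fungal glucans fell as well, with 0 that rose, 13 that fell and 1 not called, of 14 tested, and a median of -1.75. The secreted amidases, enzymes that degrade peptidoglycan and dampen the response, were among the deepest. PGRP-SC2 stood at 0.841 and 0.569 CPM with dsRNA 2, against 155 and 149 CPM in the controls (log2 fold change -7.73, SE 0.14, adjusted p 8.52e-08). PGRP-LB stood at 6.69 and 6.48 CPM with dsRNA 2, against 210.1 and 214 CPM in the controls (-5.01), and PGRP-SC1b had 0 counts against 43 and was at least 19.1-fold lower. PGRP-SD and PGRP-SA, secreted sensors that act upstream of Imd and Toll, were at -2.99 and -2.16. PGRP-LC, the main transmembrane receptor of Imd, stood at 69.6 and 71.7 CPM with dsRNA 2, against 177 and 181 CPM in the controls (-1.34). PGRP-LE, an intracellular sensor, stood at 2.08 and 2.65 CPM with dsRNA 2, against 2.09 and 2.1 CPM in the controls and was not called (0.17, adjusted p 0.5). The glucan-binding proteins GNBP1, GNBP2 and GNBP3 were at -0.90, -0.76 and -1.21. The called members kept dsRNA 2 and control libraries apart, while those of PGRP-LE overlapped.

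Imd signalling had 1 that rose, 12 that fell and 3 not called, of 16 tested (median -0.55), a lean that vanished with library size alone, at 6 higher and 7 lower (median 0.03). Rel, the NF-kB factor of the pathway, stood at 229 and 224 CPM with dsRNA 2, against 1928 and 1907 CPM in the controls (log2 fold change -3.08, SE 0.08, adjusted p 2.21e-07). pirk, an inhibitor that is itself an Imd target, stood at 25.2 and 29.7 CPM with dsRNA 2, against 516 and 503 CPM in the controls (-4.22). The adaptor imd was at -1.06, the kinase subunit key at -1.36, the ubiquitin ligase Diap2 at -1.21 and the caspase Dredd at -0.59. The kinase subunit IKKbeta rose slightly, at 44.9 and 41 CPM with dsRNA 2, against 34.9 and 34.1 CPM in the controls (0.32, adjusted p 0.0154), but was not called without dsRNA 2 replicate 1 or control replicate 2 (adjusted p 0.106 and 0.0655). Rel and pirk were each below both controls in both dsRNA 2 libraries by a wide margin.

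Toll signalling had 2 that rose, 9 that fell and 2 not called, of 13 tested (median -1.26). Its ligand spz rose, at 323 and 332 CPM with dsRNA 2, against 97.7 and 100.001 CPM in the controls (log2 fold change 1.73, SE 0.06, adjusted p 6.66e-07), and so did the NF-kB factor Dif, at 38.1 and 39.9 CPM with dsRNA 2, against 24.0 and 26.6 CPM in the controls (0.62). Genes that fell included the proteases spirit and grass (-1.67), the adaptor Myd88 (-1.27), the kinase pll (-1.57), the inhibitor cact (-1.26) and the other NF-kB factor dl (-1.41). cact stood at 137 and 135 CPM with dsRNA 2, against 325 and 328 CPM in the controls. Tl, the receptor, was at -0.34, and turned to 0.23 with library size alone. spz and Dif were higher in both dsRNA 2 libraries than in either control, and the fallers named here were lower in both.

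**Figure D3:**
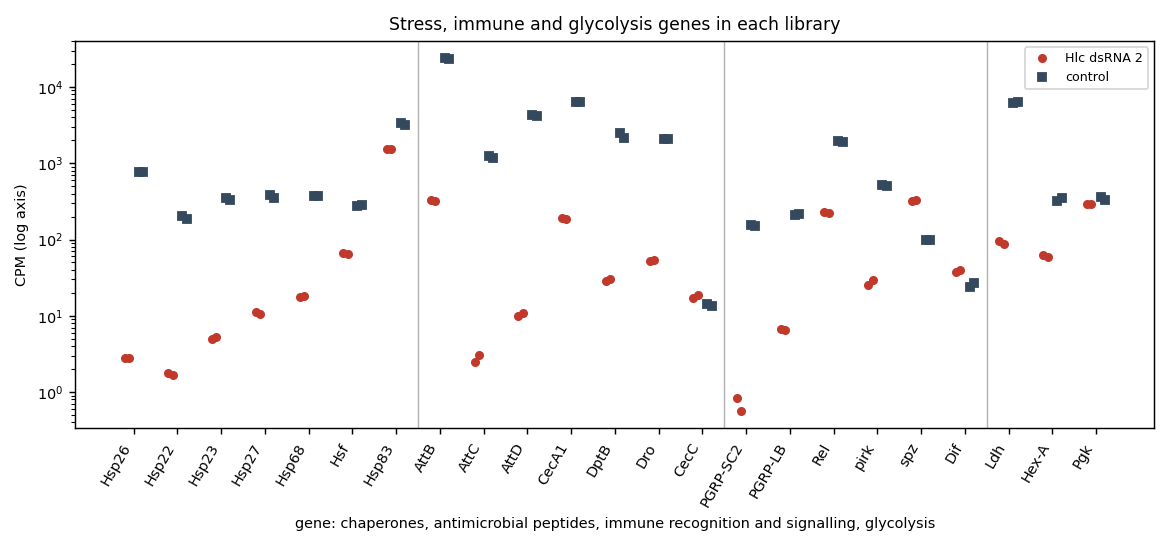
Level of 23 chaperone, antimicrobial, immune recognition and signalling, and glycolysis genes in CPM on a log axis, with 1 point per library (circles for dsRNA 2, left; squares for control, right). All genes shown except CecC, spz and Dif have both dsRNA 2 libraries below both controls.

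Genes of JAK/STAT and antiviral signalling showed 3 that rose, 9 that fell and 2 not called, of 14 tested (median -0.90), or 1 rise and 10 falls without control replicate 1. Socs36E, a feedback inhibitor and target of the pathway, stood at 122 and 124 CPM with dsRNA 2, against 1549 and 1496 CPM in the controls (log2 fold change -3.63, SE 0.09, adjusted p 1.86e-07), while the factor Stat92E rose, at 287 and 276 CPM with dsRNA 2, against 169 and 164 CPM in the controls (0.76). The thioester proteins Tep4 and Tep2, secreted complement-like proteins, were at -1.49 and -0.94. In the JNK list there were 3 that rose, 8 that fell and 3 not called, of 14 tested (median -0.45), and library size alone gave 6 rises and 6 falls (median 0.12). puc, the JNK phosphatase and a target of the pathway, stood at 70.1 and 64.3 CPM with dsRNA 2, against 226 and 218 CPM in the controls (-1.72), Gadd45 was at -2.87 and the transcription factor Ets21C at -1.95. The TNF receptor wgn and the adaptor Traf4 rose (1.29 and 0.99). Both dsRNA 2 libraries lay on 1 side of both controls for each gene named.

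Metal response genes gave 1 that rose, 7 that fell and 4 not called, of 12 tested (median -0.75), and library size alone gave 3 rises and 6 falls (median -0.18). The metallothionein MtnA, a binder of copper, stood at 30.2 and 37.0 CPM with dsRNA 2, against 166 and 159 CPM in the controls (log2 fold change -2.28, SE 0.10, adjusted p 2.70e-06). ZnT63C, a zinc transporter, stood at 167 and 165 CPM with dsRNA 2, against 759 and 747 CPM in the controls (-2.18), and the copper pump ATP7 and the metal importer Mvl were at -2.02 and -1.47. The copper importer Ctr1A rose (0.56). No library of one group reached the range of the other for these genes. Glutathione transferases and glutathione synthesis showed 4 that rose, 22 that fell and 9 not called, of 35 tested (median -0.67), and library size alone gave 11 rises and 12 falls (median -0.10). GstE9 stood at 54.7 and 57.2 CPM with dsRNA 2, against 1173 and 1106 CPM in the controls (log2 fold change -4.35, SE 0.07, adjusted p 3.84e-08). GstE11 was at -3.67, and Gclc and Gclm, which together catalyse the first step of glutathione synthesis, at -1.61 and -1.94. GstZ1 went the other way (0.74). Leaving out 1 library of either group left 1 or 2 of the 4 rises, and GstE2 (0.38) lost its call in each of those fits (adjusted p 0.0531 to 0.0773). The dsRNA 2 libraries were low for the called transferases named, other than GstZ1.

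In oxidant defence 8 of 16 members fell and 3 rose, with a median of -0.11 that turned to 0.46 with library size alone (8 rises and 6 falls) and 0.03 with upper-quartile factors. Keap1, the inhibitor of the oxidant-response factor cnc, stood at 11.9 and 11.7 CPM with dsRNA 2, against 97.1 and 93.0 CPM in the controls (log2 fold change -3.01, SE 0.10, adjusted p 6.94e-07). ref(2)P, the fly p62 autophagy receptor, stood at 194 and 189 CPM with dsRNA 2, against 764 and 778 CPM in the controls (-2.01), and thioredoxin reductase (Trxr-1) and malic enzyme (Men) were at -1.38 and -1.31. The peroxiredoxins Jafrac2 and Prx3 rose (0.73 and 0.57). Groups were apart in all of these, as in nearly all called features.

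Glycolysis fell nearly as a whole, with 0 that rose, 12 that fell and 1 not called, of 13 tested, and a median of -1.22 (2 rises and 9 falls with library size alone), and took 0.386% and 0.372% of all counts with dsRNA 2, against 1.02% and 1.05% in the controls. Ldh, lactate dehydrogenase, which ends glycolysis when oxygen or respiration is short, stood at 96.3 and 86.5 CPM with dsRNA 2, against 6196 and 6370.4 CPM in the controls (log2 fold change -6.10, SE 0.10, adjusted p 4.23e-08). Hex-A, the main hexokinase, stood at 63.3 and 58.2 CPM with dsRNA 2, against 323 and 350.1 CPM in the controls (-2.47). Tpi, Pfk, Gapdh2, Pgi, Eno and Ald1 were at -1.84, -1.71, -1.53, -1.34, -1.22 and -1.08, with PyK and Pglym78 at -0.74 and -0.75. Gapdh1 (-0.48) and Pgk (-0.23) were lower by little, and turned to 0.09 and 0.34 with library size alone. Pgk was not called with upper-quartile factors (adjusted p 0.391) or without any 1 of the 4 libraries compared (adjusted p 0.0661 to 0.201). Hex-C stood at 0.683 and 0.553 CPM with dsRNA 2, against 0.431 and 0.248 CPM in the controls and was not called (adjusted p 0.146). Regulators of the hypoxia response had 0 that rose, 6 that fell and 2 not called, of 8 tested (median -1.34), or 2 rises and 6 falls with library size alone, and Hph, the hydroxylase that marks the hypoxia factor for decay, stood at 183 and 187 CPM with dsRNA 2, against 704 and 812 CPM in the controls (-2.03). Thor, the fly 4E-BP that restrains cap-dependent translation and a target of several stress pathways, stood at 175 and 164 CPM with dsRNA 2, against 2258 and 2484 CPM in the controls (log2 fold change -3.81, SE 0.13, adjusted p 6.58e-07), and scyl, an inhibitor of TOR, was at -1.51. For Ldh, Hph and Thor every control library was well above every dsRNA 2 library.

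Genes of the unfolded protein and integrated stress responses had 2 that rose, 12 that fell and 8 not called, of 22 tested (median -0.19), but library size alone gave 13 rises and 6 falls (median 0.39). Ire1, a sensor of unfolded proteins in the endoplasmic reticulum, stood at 84.3 and 83.3 CPM with dsRNA 2, against 229 and 253 CPM in the controls (log2 fold change -1.53, SE 0.06, adjusted p 1.45e-06), PPP1R15, the phosphatase subunit that ends the translation block, was at -1.49, and the oxidase Ero1L at -1.37. The exchange factor Sil1 rose (0.76). In the apoptosis list 0 members rose, 8 fell and 5 were not called (median -0.88), and library size alone gave 4 rises and 6 falls (median -0.30). rpr, an inducer of cell death, stood at 4.75 and 5.15 CPM with dsRNA 2, against 90.4 and 87.8 CPM in the controls (log2 fold change -4.17, SE 0.11, adjusted p 2.80e-07). Xrp1, a stress-induced transcription factor, stood at 648 and 626 CPM with dsRNA 2, against 1754 and 1902 CPM in the controls (-1.52), and the Bcl-2 relative Debcl was at -1.67. rpr and Xrp1 were lower in both dsRNA 2 libraries than in either control.

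Autophagy genes gave 2 that rose, 14 that fell and 6 not called, of 22 tested (median -0.48), and library size alone gave 7 rises and 7 falls (median 0.09). Of the risers, Mitf (0.23) was not called in 10 alternative fits, each fit without 1 library among them (adjusted p 0.0518 to 0.225 over the 10). Atg13 stood at 31.5 and 29.4 CPM with dsRNA 2, against 96.5 and 105 CPM in the controls (-1.72). Atg5 and Atg8a, which build and label the autophagosome, were at -1.25 and -0.99. Proteasome subunits showed 4 that rose, 26 that fell and 6 not called, of 36 tested (median -0.30), but library size alone gave 22 rises and 3 falls (median 0.28). There were 1 rise and 20 falls without dsRNA 2 replicate 2 and 2 rises and 19 falls without control replicate 1. Rpn13, a ubiquitin receptor of the proteasome, stood at 120.4 and 126 CPM with dsRNA 2, against 249 and 236 CPM in the controls (-0.98), and Rpt3R, a variant ATPase subunit, rose (1.19). The fall of the proteasome list was therefore one relative to the TMM scale, and Rpn13 and Atg13 were lower than both controls in both dsRNA 2 libraries.

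The translation machinery fell on the TMM scale, as did most abundant transcripts. Of 673 features over 256 CPM 463 were lower (median -0.64), and the lists were not compared with features of matched level. Cytoplasmic ribosomal protein genes had 1 that rose, 80 that fell and 4 not called, of 85 tested, with a median of -0.85, and took 21.2% and 22.3% of all counts with dsRNA 2, against 28.6% and 26.4% in the controls. With library size alone 52 stayed lower, 2 were higher and the median was -0.27. RpL3, of the large subunit, stood at 1585 and 1698 CPM with dsRNA 2, against 5989 and 5273 CPM in the controls (log2 fold change -1.78, SE 0.08, adjusted p 2.76e-06), and sta, a small-subunit protein, at 4436 and 4738 CPM with dsRNA 2, against 10595 and 10005 CPM in the controls (-1.17). RpS15Ab was the 1 member that rose (0.49). Translation factors had 4 that rose, 37 that fell and 6 not called, of 47 tested (median -0.91), and library size alone gave 13 rises and 27 falls (median -0.33). eIF3c, a subunit of the initiation factor that brings the small ribosomal subunit to mRNA, stood at 757 and 756 CPM with dsRNA 2, against 2013 and 1961 CPM in the controls (-1.39), with its partners eIF3d1 and eIF3k at -1.18 and -1.04, while the elongation factor subunit eEF1delta rose (0.98). The dsRNA 2 libraries lay below both controls for RpL3, sta and eIF3c.

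Aminoacyl-tRNA synthetases, which load amino acids onto tRNAs, had 8 that rose, 19 that fell and 5 not called, of 32 tested (median -0.64), and library size alone gave 14 rises and 13 falls (median -0.06). Cytoplasmic CysRS stood at 65.7 and 63.1 CPM with dsRNA 2, against 264 and 266 CPM in the controls (log2 fold change -2.04, SE 0.05, adjusted p 2.80e-07), TrpRS was at -1.55 and GlyRS at -1.45. AspRS was at -1.92 but overlaps other genes over 73.5% of its exonic length. The members named for rising are both mitochondrial enzymes, ValRS-m at 7.78 and 7.17 CPM with dsRNA 2, against 2.18 and 2.45 CPM in the controls (1.69) and SerRS-m at 1.19. Cytoplasmic and mitochondrial enzymes were not tested against each other.

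Ribosome biogenesis genes, which make and process ribosomal RNA, mostly rose, with 28 that rose, 4 that fell and 0 not called, of 32 tested, and a median of 0.94 (28 rises and 2 falls with library size alone). RpI135, a large subunit of RNA polymerase I, stood at 60.5 and 58.6 CPM with dsRNA 2, against 16.9 and 15.6 CPM in the controls (log2 fold change 1.88, SE 0.07, adjusted p 1.39e-06), and RpI12, a small subunit of the same enzyme, at 9.63 and 11 CPM with dsRNA 2, against 2.83 and 2.20 CPM in the controls (2.04). l(1)G0020, an RNA acetyltransferase of the nucleolus, and the nucleolar protein Surf6 were at 1.54 and 1.21. The exceptions named by the rule were Nop17l, at 42.9 and 42.7 CPM with dsRNA 2, against 116 and 130.5 CPM in the controls (-1.52), and the nucleolar GTPase Non1 (-1.16). All 4 risers named were above both controls in both dsRNA 2 libraries.

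DNA replication genes rose almost without exception, with 33 that rose, 0 that fell and 1 not called, of 34 tested, against 30.4% of all tested features higher, and a median log2 fold change of 1.53. Mcm10, which helps to activate the replicative helicase, stood at 24.1 and 25.3 CPM with dsRNA 2, against 2.71 and 2.78 CPM in the controls (log2 fold change 3.17, SE 0.10, adjusted p 5.84e-07). Mcm6, a subunit of that helicase, stood at 151 and 148 CPM with dsRNA 2, against 31.2 and 32.9 CPM in the controls (2.22), and dup, the loading factor Cdt1, at 68.2 and 72.5 CPM with dsRNA 2, against 18.5 and 17.6 CPM in the controls (1.96). The smallest called rise was in RpA-70, a single-strand binding protein, at 265 and 262 CPM with dsRNA 2, against 209 and 212 CPM in the controls (0.32). Each of these genes was higher in both dsRNA 2 libraries than in either control. Together the list took 0.247% and 0.247% of all counts with dsRNA 2, against 0.0711% and 0.0713% in the controls.

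Mitosis genes behaved likewise, with 22 that rose, 1 that fell and 1 not called, of 24 tested, and a median of 1.31. Beside stg, pav, a kinesin needed for cell division, stood at 172 and 175 CPM with dsRNA 2, against 32.5 and 33.8 CPM in the controls (log2 fold change 2.39, SE 0.05, adjusted p 1.36e-07). cmet, a kinetochore kinesin, stood at 131 and 129 CPM with dsRNA 2, against 28.6 and 29.2 CPM in the controls (2.17), and the mitotic kinase polo at 236 and 241 CPM with dsRNA 2, against 85.1 and 86.7 CPM in the controls (1.47). All dsRNA 2 libraries were above all controls for these 3. Klp10A, a microtubule-depolymerising kinesin, was the 1 member called lower (-0.31), and turned to 0.26 with library size alone. Regulators of the G1/S step had 8 that rose, 1 that fell and 2 not called, of 11 tested (median 0.47). CycE, the cyclin that starts S phase, stood at 32.1 and 30.5 CPM with dsRNA 2, against 8.76 and 8.27 CPM in the controls (1.88). The Cdk inhibitor dap stood at 47.3 and 41.8 CPM with dsRNA 2, against 15.3 and 18.3 CPM in the controls (1.41). CycD, the growth-linked cyclin, stood at 44.3 and 40.4 CPM with dsRNA 2, against 61.5 and 66.8 CPM in the controls (-0.60). With library size alone CycD was at -0.03 and was not called (adjusted p 0.803). Cdk2, the partner of CycE, stood at 28.7 and 28.1 CPM with dsRNA 2, against 2.87 and 5.29 CPM in the controls (2.78) but overlaps other genes over 43.9% of its exonic length.

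DNA repair and checkpoint genes gave 12 that rose, 3 that fell and 5 not called, of 20 tested (median 0.41), library size alone gave 18 rises and 1 fall (median 0.98), and there were 11 rises and 1 fall without dsRNA 2 replicate 2. Fancd2, of the crosslink repair pathway, stood at 26.2 and 25.3 CPM with dsRNA 2, against 5.77 and 5.89 CPM in the controls (log2 fold change 2.14, SE 0.09, adjusted p 1.80e-06), and the mismatch repair gene Msh6 at 52.2 and 52.2 CPM with dsRNA 2, against 11.6 and 12.2 CPM in the controls (2.13). grp, the fly Chk1 checkpoint kinase, was at 1.32. Irbp, the Ku70 end-joining protein, fell instead, at 45.5 and 45.4 CPM with dsRNA 2, against 89.4 and 91.8 CPM in the controls (-1.0). Xpc, which recognises damaged bases, was at -0.27, and turned to 0.30 with library size alone. Fancd2, Msh6 and grp were high, and Irbp low, in both dsRNA 2 libraries.

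**Figure D4:**
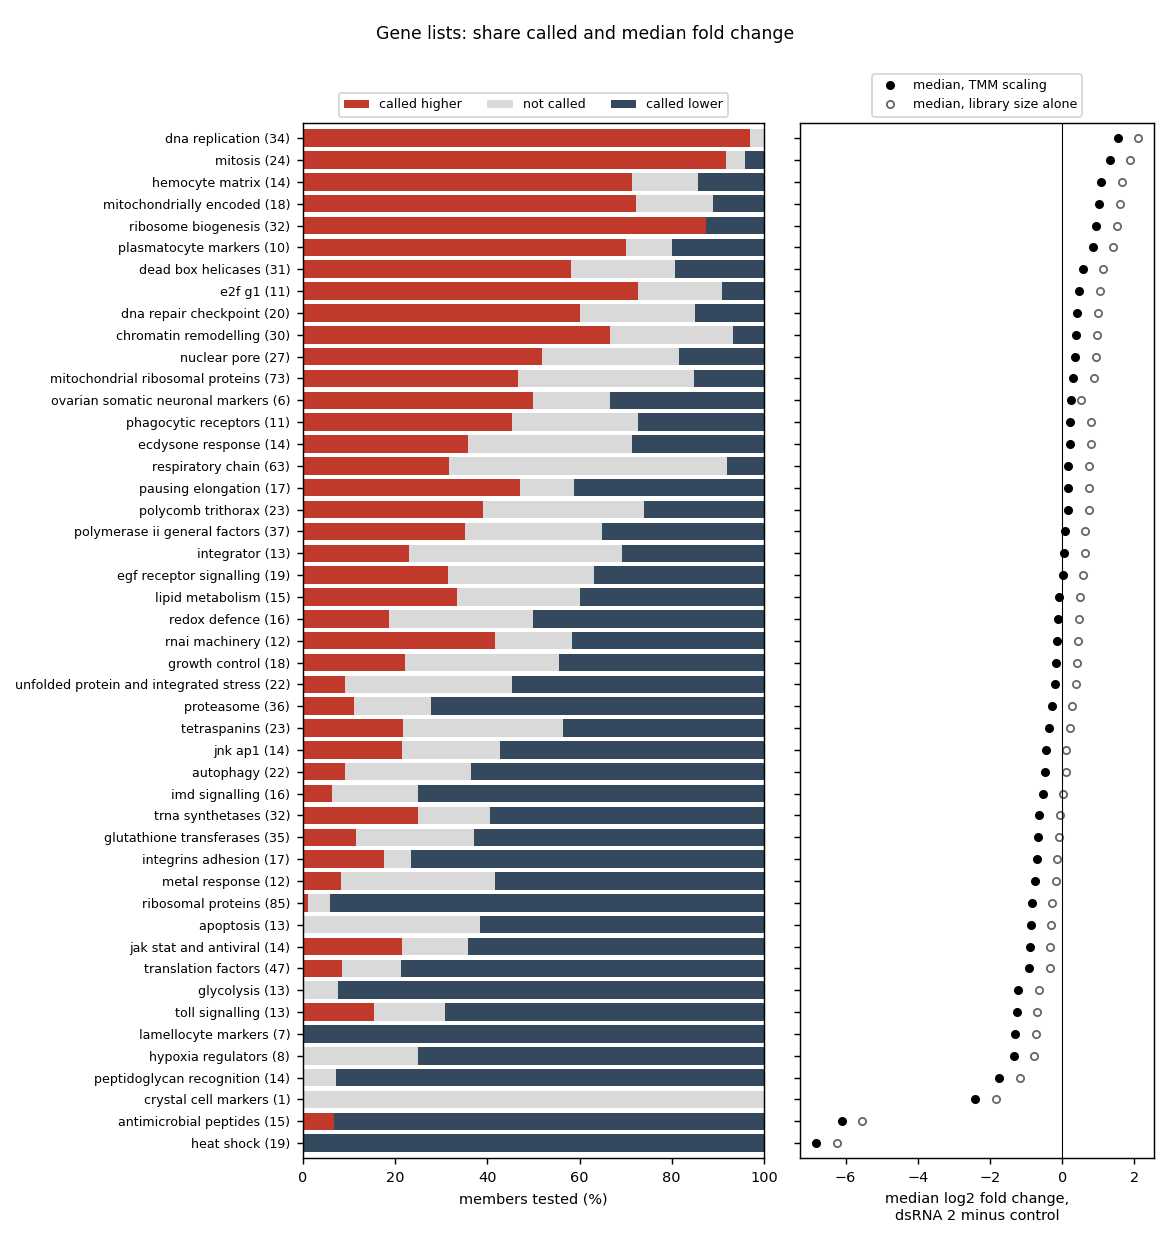
For each of the 47 gene lists (number tested in brackets), the bars on the left give the percentage of tested members called higher, not called and called lower with dsRNA 2, and the points on the right give the median log2 fold change with TMM scaling (filled) and with library size alone (open). DNA replication and mitosis lie at the top with medians of 1.53 and 1.31, heat shock and antimicrobial peptide genes at the bottom with -6.83 and -6.11.

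Other DEAD-box helicases were examined beside the target. The list, Hlc included, had 18 that rose, 6 that fell and 7 not called, of 31 tested (median 0.57), and library size alone gave 26 rises and 3 falls (median 1.14). CG5589 and CG32344, members known by number, rose, at 14.3 and 17.1 CPM with dsRNA 2, against 4.50 and 4.07 CPM in the controls (1.88) and 57.2 and 56 CPM with dsRNA 2, against 22.2 and 21.5 CPM in the controls (1.37). Rm62, the fly p68, which acts in RNA interference and transcription, fell, at 1119 and 1064 CPM with dsRNA 2, against 2361 and 2384 CPM in the controls (log2 fold change -1.12, SE 0.06, adjusted p 5.19e-06). Both dsRNA 2 libraries were outside the control range in each. Chromatin remodelling genes had 20 that rose, 2 that fell and 8 not called, of 30 tested (median 0.39), and library size alone gave 28 rises and 0 falls (median 0.97). Acf, which spaces nucleosomes with Iswi, stood at 89.8 and 88.5 CPM with dsRNA 2, against 24.6 and 26.8 CPM in the controls (log2 fold change 1.80, SE 0.06, adjusted p 8.23e-07), and dom and Chd3, also remodelling ATPases, were at 1.07 and 1.41. Chd1 (-0.35) and Bap111 (-0.42) were called lower, and turned to 0.22 and 0.16 with library size alone.

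On the TMM scale the general transcription machinery had about as many rises as falls. For polymerase II both shares were not far from the 30.4% higher and 30.3% lower of all tested features. RNA polymerase II and its general factors had 13 that rose, 13 that fell and 11 not called, of 37 tested (median 0.07), library size alone gave 29 rises and 1 fall (median 0.64), and there were 11 rises and 8 falls without dsRNA 2 replicate 1. Taf6, a subunit of TFIID, stood at 36.2 and 37.7 CPM with dsRNA 2, against 104 and 102 CPM in the controls (log2 fold change -1.48, SE 0.10, adjusted p 1.92e-05). Genes of pausing and elongation had 8 that rose, 7 that fell and 2 not called, of 17 tested (median 0.17), and library size alone gave 11 rises and 2 falls (median 0.74). Cdk9, the kinase that releases paused polymerase, stood at 21.7 and 22.4 CPM with dsRNA 2, against 69.3 and 71.3 CPM in the controls (log2 fold change -1.68, SE 0.08, adjusted p 3.29e-06), and Su(Tpl), the elongation factor ELL, at 85.6 and 80.6 CPM with dsRNA 2, against 282 and 289.7 CPM in the controls (-1.78). Nelf-A, of the complex that holds polymerase in the pause, was at -0.82, and Larp7, of the particle that keeps Cdk9 inactive, at 1.05. Cdk9, Su(Tpl), Taf6 and Nelf-A were low in both dsRNA 2 libraries, and Larp7 was high in both.

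The Integrator complex had 3 that rose, 4 that fell and 6 not called, of 13 tested (median 0.05), against 30.4% higher and 30.3% lower among all tested features, and library size alone gave 10 rises and 1 fall (median 0.63). Its subunit omd stood at 44.2 and 40.7 CPM with dsRNA 2, against 89.2 and 81.5 CPM in the controls (-1.01). Polycomb and trithorax genes had 9 that rose, 6 that fell and 8 not called, of 23 tested (median 0.17), shares not far from those of all features, and library size alone gave 20 rises and 2 falls (median 0.74). The remodeller kis stood at 367 and 366 CPM with dsRNA 2, against 166 and 199 CPM in the controls (1.01) and the histone demethylase Utx at 50.7 and 49.7 CPM with dsRNA 2, against 92.0 and 105 CPM in the controls (-0.97). Nuclear pore and transport genes had 14 that rose, 5 that fell and 8 not called, of 27 tested (median 0.36), library size alone gave 22 rises and 0 falls (median 0.93), and there were 14 rises and 3 falls without control replicate 1. The importin Fs(2)Ket stood at 107 and 102 CPM with dsRNA 2, against 36.8 and 37.0 CPM in the controls (1.5). kis and Fs(2)Ket were above the controls in both dsRNA 2 libraries, and omd and Utx below. Of 12 genes of the RNA interference and piRNA machinery 5 rose and 5 fell, with a median of -0.13 that turned to 0.44 with library size alone (8 rises and 1 fall) and 0.01 with upper-quartile factors. pasha, the partner of the microRNA-cutting enzyme drosha, stood at 29.1 and 29.4 CPM with dsRNA 2, against 4.37 and 4.50 CPM in the controls (log2 fold change 2.72, SE 0.09, adjusted p 6.99e-07), and piwi, which guards against transposons in the gonad, at 14.5 and 13.6 CPM with dsRNA 2, against 3.43 and 2.89 CPM in the controls (2.15).

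Transcripts of the mitochondrial genome rose in most cases. Of its 18 tested features 13 rose and 2 fell (median 1.02). mt:ND1, of respiratory complex I, stood at 90.6 and 92.3 CPM with dsRNA 2, against 29.9 and 33.3 CPM in the controls (log2 fold change 1.53, SE 0.08, adjusted p 5.69e-06), while the large ribosomal RNA mt:lrRNA stood at 2492 and 2617 CPM with dsRNA 2, against 5822 and 5199 CPM in the controls (-1.11). Both were outside the control range in both dsRNA 2 libraries. Nuclear genes of the respiratory chain had 20 that rose, 5 that fell and 38 not called, of 63 tested (median 0.17), a share of rises close to the 30.4% of all tested features. The lean was absent without dsRNA 2 replicate 2 (5 rises and 6 falls) or control replicate 2 (6 rises and 8 falls), and library size alone gave 53 rises and 2 falls. Among its genes were UQCR-Q, of complex III, at 0.47 and its partner UQCR-C1 at 315 and 329.8 CPM with dsRNA 2, against 755 and 687 CPM in the controls (-1.16). Mitochondrial ribosomal proteins had 34 that rose, 11 that fell and 28 not called, of 73 tested (median 0.30), but library size alone gave 66 rises and 3 falls (median 0.87), and there were 30 rises and 6 falls without dsRNA 2 replicate 1. Members ranged from mRpL28 at 83.6 and 87.4 CPM with dsRNA 2, against 227 and 209 CPM in the controls (-1.35) to mRpL20 at 16.8 and 19.3 CPM with dsRNA 2, against 5.52 and 4.96 CPM in the controls (1.79).

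Genes of the extracellular matrix that plasmatocytes secrete were mostly higher. The matrix list had 10 that rose, 2 that fell and 2 not called, of 14 tested (median 1.08) and took 1.85% and 1.79% of all counts with dsRNA 2, against 0.620% and 0.620% in the controls. Ppn, the matrix protein papilin, stood at 346 and 346 CPM with dsRNA 2, against 73.7 and 73.2 CPM in the controls (log2 fold change 2.23, SE 0.05, adjusted p 1.36e-07), LanB2, a laminin chain, at 799.5 and 809 CPM with dsRNA 2, against 251 and 238 CPM in the controls (1.72), and the secreted plasmatocyte protein Nplp2 at 1580.1 and 1578 CPM with dsRNA 2, against 394 and 359 CPM in the controls (2.07). Pxn, peroxidasin, was at 2.86. Mmp2, a matrix metalloprotease, fell, at 6.78 and 8.21 CPM with dsRNA 2, against 41.2 and 49.1 CPM in the controls (-2.59). No dsRNA 2 library overlapped with a control in these genes. Plasmatocyte markers had 7 that rose, 2 that fell and 1 not called, of 10 tested (median 0.85), a list that shares members with the matrix list. Phagocytic receptors had 5 that rose, 3 that fell and 3 not called, of 11 tested (median 0.23), or 3 rises and 3 falls without dsRNA 2 replicate 2 and likewise without control replicate 1. The phagocytic receptor eater was at 0.78, the scavenger receptor crq at -0.87 and the blood cell GATA factor srp at -0.71.

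All 7 tested lamellocyte markers fell (median -1.30). PPO3, a prophenoloxidase of lamellocytes, stood at 14.4 and 14.4 CPM with dsRNA 2, against 68.4 and 67.2 CPM in the controls (log2 fold change -2.23, SE 0.09, adjusted p 1.36e-06), and the filamin cher at 434 and 425 CPM with dsRNA 2, against 1058 and 1061 CPM in the controls (-1.30). Integrin and adhesion genes had 3 that rose, 13 that fell and 1 not called, of 17 tested (median -0.71), and library size alone gave 4 rises and 8 falls (median -0.14). Vinc, the focal adhesion protein vinculin, stood at 224 and 219 CPM with dsRNA 2, against 590.1 and 565 CPM in the controls (-1.38). by, the fly tensin, rose, at 16.7 and 14.9 CPM with dsRNA 2, against 1.48 and 1.22 CPM in the controls (log2 fold change 3.55, SE 0.14, adjusted p 1.53e-06), and so did the integrin alpha subunit mew (2.29). Vinc, PPO3 and cher were low and by and mew high in both dsRNA 2 libraries. Tetraspanins had 5 that rose, 10 that fell and 8 not called, of 23 tested (median -0.36). Among all tested features 30.4% were higher and 30.3% lower. For tetraspanins library size alone gave 9 rises and 5 falls (median 0.21). Tsp42Ea stood at 23.3 and 22.6 CPM with dsRNA 2, against 193 and 166 CPM in the controls (-2.97). The ovarian and neuronal markers had 3 that rose, 2 that fell and 1 not called, of 6 tested (median 0.24). The adhesion protein Fas3 stood at 0.366 and 0.837 CPM with dsRNA 2, against 40.5 and 38.9 CPM in the controls (-6.08, or -6.75 without dsRNA 2 replicate 2), and bab2 was at -3.26, while tj, Syt1 and repo did not pass the filter.

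EGF receptor signalling had 6 that rose, 7 that fell and 6 not called, of 19 tested, with a median of 0.01 whose sign changed in 5 of the alternative fits. Both shares lie near the 30.4% higher and 30.3% lower of all tested features, library size alone gave 14 rises and 1 fall (median 0.59), and there were 6 rises and 2 falls without dsRNA 2 replicate 2. Beside aos, the pathway inhibitor sty, a target of the pathway, stood at 377 and 383 CPM with dsRNA 2, against 82.3 and 69.5 CPM in the controls (log2 fold change 2.32, SE 0.08, adjusted p 9.31e-07), and the kinase Raf was at 1.23; the adaptor drk was at -0.93. Growth control genes had 4 that rose, 8 that fell and 6 not called, of 18 tested (median -0.17), but library size alone gave 11 rises and 2 falls (median 0.40). ImpL2, a secreted antagonist of insulin-like peptides, stood at 405 and 384 CPM with dsRNA 2, against 2037 and 2329.5 CPM in the controls (-2.47) but overlaps other genes over 61.9% of its exonic length, and foxo, the insulin-inhibited transcription factor, stood at 26.3 and 24.9 CPM with dsRNA 2, against 8.99 and 8.18 CPM in the controls (1.58). sty and foxo were high and ImpL2 was low in both dsRNA 2 libraries. Lipid genes had 5 that rose, 6 that fell and 4 not called, of 15 tested, shares not far from those of all tested features. Their median of -0.09 turned to 0.48 with library size alone (11 rises and 2 falls) and 0.05 with upper-quartile factors. The lipase bmm, which releases stored fat, stood at 103 and 96.3 CPM with dsRNA 2, against 38.3 and 39.1 CPM in the controls (1.36), and Pcyt1, an enzyme of phosphatidylcholine synthesis, at 248 and 236 CPM with dsRNA 2, against 816 and 889.8 CPM in the controls (-1.82). Ecdysone response genes had 5 that rose, 4 that fell and 5 not called, of 14 tested (median 0.22). Both shares were near those of all tested features, and library size alone gave 8 rises and 3 falls (median 0.79). There were 2 rises and 3 falls without dsRNA 2 replicate 1 and 3 rises and 4 falls without either control library. Sox14, an ecdysone-induced factor, stood at 18.0 and 17.9 CPM with dsRNA 2, against 71.7 and 80.3 CPM in the controls (-2.08) and Eip74EF at 1.08.

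Beyond coding genes, annotated copies of transposable elements were more often higher than lower. Of 1376 copies that passed the filter 533 rose and 56 fell, with a median of 0.68, against 2698 higher and 3207 lower among 9068 coding genes (median -0.04). Families differed. All 27 copies of blood, all 20 of Tirant and all 17 of 17.6 rose, as did 45 of 50 copies of 297 and 34 of 42 of jockey, and their median log2 fold changes were 0.94, 1.26, 1.34, 1.13 and 1.32. copia went the other way, with 31 of 34 copies lower and a median of -0.69. roo, with 121 copies tested, had 2 higher and 1 lower. Copies of a family share most of their sequence and therefore reads, so copies are not independent and a family is closer to 1 measurement than to many.

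Small RNA genes were tested with the caution that poly(A) selection captures most of them poorly. Of 90 small nucleolar RNAs tested 31 rose, 1 fell and 58 were not called (median 1.46). Rises were about as frequent as the 30.4% of all tested features, while falls were rarer than the 30.3% of all tested features. Of 11 spliceosomal and related nuclear RNAs 0 rose and 7 fell (median -2.56). snRNA:7SK, the RNA that holds Cdk9 inactive, stood at 0.50 and 0.648 CPM with dsRNA 2, against 2.83 and 2.5 CPM in the controls (log2 fold change -2.22, SE 0.50, adjusted p 0.00698). Its dsRNA 2 libraries were both below the controls, and it was named after its value was seen. Chromosome 4, a small and largely heterochromatic chromosome, had 64 features higher and 12 lower of 181 tested (median 0.52). Among its 66 coding genes 26 rose and 11 fell (median 0.18), while coding medians on the other main arms lay between -0.12 and -0.02.

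The direct comparison of dsRNA 2 with dsRNA 3 asks where the knockdowns by different dsRNAs gave different levels, without the shared controls as a baseline. It called 9 of 11293 features (0.0797%), and 2298 had an unadjusted p under 0.05. The largest well-measured difference was in prtp, which codes for pretaporter, a protein of the endoplasmic reticulum that serves as a signal for the engulfment of dying cells (FBgn0030329, chromosome X, 11716756 to 11719894, plus strand). It stood at 80.8 and 84.8 CPM with dsRNA 2, 190.4 and 189.8 CPM with dsRNA 3 and 221 and 204 CPM in the controls (log2 difference -1.20, SE 0.06, adjusted p 0.0018). The dsRNA 2 libraries were alone in being low, and the dsRNA 3 libraries lay just below the controls. Against the controls the log2 fold changes of prtp were -1.36 with dsRNA 2 and -0.16 with dsRNA 3. prtp was called in all 15 alternative fits, and was the only call in 6 of them, namely library size alone, the fit of the 4 libraries compared, the replicate block, and without dsRNA 3 replicate 2, control replicate 1 or control replicate 2.

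The other 8 were near the threshold, with adjusted p values from 0.0398 to 0.0406. edin, an immune-induced peptide, stood at 177 and 185 CPM with dsRNA 2, 124 and 119 CPM with dsRNA 3 and 5040.4 and 4902 CPM in the controls (log2 difference 0.58, SE 0.06, adjusted p 0.0406), so both dsRNAs left it far below control. JhI-26, a juvenile hormone inducible gene that overlaps other genes over 70.5% of its exonic length, stood at 39.2 and 39.7 CPM with dsRNA 2, 27.0 and 27.0 CPM with dsRNA 3 and 335 and 332 CPM in the controls (0.55). CG15784 was also low with both, at 191 and 190.0 CPM with dsRNA 2, 122 and 129.9 CPM with dsRNA 3 and 1271 and 1301 CPM in the controls (0.60). CG18135 was lowest with dsRNA 2, at 44.4 and 45.4 CPM with dsRNA 2, 67.8 and 69.8 CPM with dsRNA 3 and 111 and 120.5 CPM in the controls (-0.62). In these 4 genes the libraries of the 3 groups did not overlap. CG3168 stood at 34.2 and 33.9 CPM with dsRNA 2, 18.6 and 16.3 CPM with dsRNA 3 and 37.9 and 43.0 CPM in the controls (0.97), and was not called against control (adjusted p 0.0675). CG32625 stood at 40.8 and 40.1 CPM with dsRNA 2, 23.3 and 22.7 CPM with dsRNA 3 and 25.3 and 28.0 CPM in the controls (0.82), the dsRNA 2 libraries being the high ones. CG10814 had 84 counts with dsRNA 2 and 0 with dsRNA 3, at least 31.3-fold higher with dsRNA 2, and 2.20 and 2.66 CPM in the controls, above both Hlc groups. The transposable element copy RR48361_transposable_element stood at 86.7 and 81.3 CPM with dsRNA 2, 50.1 and 46.7 CPM with dsRNA 3 and 29.8 and 26.5 CPM in the controls (0.80), with the groups in 3 separate steps. Across the 47 lists edin was the only member called between the dsRNAs, and Hlc itself was at -0.14 (adjusted p 0.456).

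**Figure D5:**
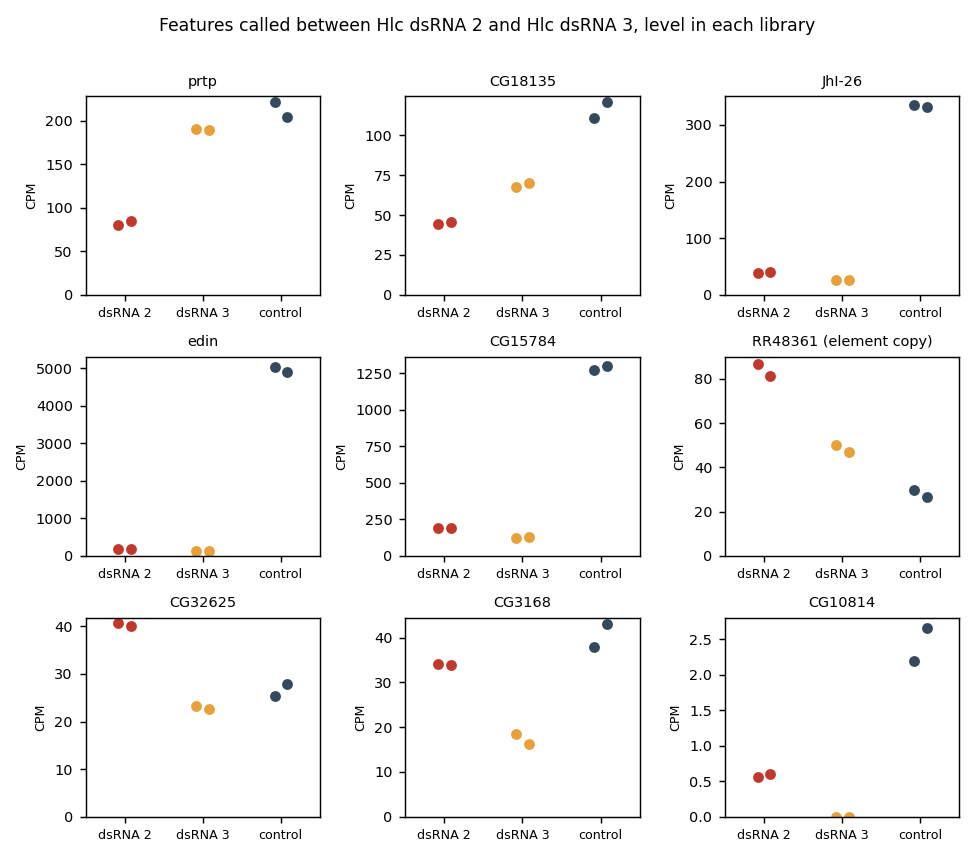
Level in CPM, on axes that start at 0, of the 9 features called between the dsRNAs, with 1 point per library for Hlc dsRNA 2, Hlc dsRNA 3 and control. prtp is low with dsRNA 2 alone, at 80.8 and 84.8 CPM, CG10814 is at 0 in both dsRNA 3 libraries, and the remaining 7 panels show smaller steps between the dsRNAs than prtp.

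The side-by-side medians of the lists give the size of the change with each dsRNA against the same 2 controls, which the comparisons share. The heat shock median was -6.83 with dsRNA 2 and -4.95 with dsRNA 3, and with dsRNA 2 it was -5.75 when members at 0 counts are put at their bound. The bound was not applied to dsRNA 3, and no heat shock member was called between the dsRNAs. The median with dsRNA 2 is the value of Hsp22, which was at -6.91 with dsRNA 3. The median with dsRNA 3 is the value of Hsp27, which was at -5.05 with dsRNA 2. Antimicrobial peptides were at -6.11 with dsRNA 2 and -6.24 with dsRNA 3, DNA replication at 1.53 and 1.51, and mitosis at 1.31 and 1.43. Nuclear genes of the respiratory chain were at 0.17 with dsRNA 2 and -0.15 with dsRNA 3, and mitochondrial ribosomal proteins at 0.30 and -0.08. No member of either list was called between the dsRNAs. That test called 9 features while 2298 had an unadjusted p under 0.05, so it cannot exclude small shifts shared by a list. Mitochondrial ribosomal proteins took 0.325% and 0.334% of all counts with dsRNA 2, against 0.285% and 0.266% with dsRNA 3. Respiratory chain genes took 1.299% and 1.345% with dsRNA 2, against 1.217% and 1.132% with dsRNA 3. In both lists these shares did not overlap between the dsRNAs, and a list-wide difference was not tested.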

How the data were processed

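RNA was measured in 6 libraries of S2 cells, 2 for each of Hlc dsRNA 2, Hlc dsRNA 3 and beta-gal dsRNA. The authors deposited whole-number counts per feature, not normalized. Per the submitters' processing notes the tools were Trimmomatic 0.36, TopHat2 2.1.0 and StringTie 2.1.7 with build BDGP6. For the counting step, its strand setting and reads that match several places, the settings were not given in the sources used here. Values of close copies and overlapping genes are therefore uncertain. Coordinates and classes came from annotation BDGP6.54, release 115, which held 99.7% of the features.

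Features were filtered with filterByExpr and fitted over all 6 libraries with a term per group in edgeR 4.0.16 (limma 3.58.1, R 4.3.3), with TMM factors and the quasi-likelihood F test. p-values were Benjamini-Hochberg adjusted over 11293 features, and a feature was called at an adjusted p under 0.05. The SE is the size of the log2 change over the root of its F statistic. Tables were made with Python 3.11.15, and the fit was tested on simulated data. For a group at 0 counts a bound allows 3 counts over the group, and the 95% intervals of count ratios are exact binomial. Intervals and bounds cover counting error only.

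Named genes were Hlc and the 10 largest called rises and falls with a symbol and at least 50 mean counts in the higher group. Both dsRNA 2 libraries of these rises and falls had to lie on the same side of both controls. Also named were up to 4 members of each of 47 lists with the smallest adjusted p, and up to 2 called against the list's main direction. For the comparison of the dsRNAs, the rule took up to 8 each way under the same conditions as the largest changes. All members of the heat shock, antimicrobial peptide, recognition, Imd, Toll and glycolysis lists, the extreme called members of each list, and the called features known by number were added after their values were seen. The members and lists were chosen with earlier results of these data known.

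Replicates differed beyond sampling noise, with a chi-square per degree of freedom of 31.6 for dsRNA 2, 37.9 for dsRNA 3 and 27.4 for control. Alternatives were upper-quartile factors, library size alone, DESeq2 1.42.0 size factors and Wald test, limma-voom, other filters, the 4 libraries alone, a replicate block, and leaving out each library. Promoter motifs were not analysed here.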

Additional observations from a re-analysis of the deposited data

Results flagged for a closer look

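The direct test of dsRNA 2 against dsRNA 3 found a difference in 9 features, and these are the results in which the 2 knockdowns differ by a test of the difference itself. prtp was lower with dsRNA 2, with a log2 difference of -1.20, and CG18135 was lower by less, at -0.62. JhI-26 differed by 0.55, CG15784 by 0.60 and edin by 0.58, each higher with dsRNA 2 and each far below control with both dsRNAs. CG3168 differed by 0.97, CG32625 by 0.82 and RR48361_transposable_element by 0.80, all higher with dsRNA 2. CG10814 had a fitted log2 difference of 8.34, which is no bound because it was at 0 counts in both dsRNA 3 libraries. Groups of 2 libraries are too small to be examined for a library that stands apart.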

How the results depend on the processing

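The number of features called between dsRNA 2 and control stayed within 5755 to 7657 over all alternatives (6634 with the replicate block), but library size alone called 6038 higher and 1619 lower. The number called between the dsRNAs, 9 as reported, was 8 with DESeq2 size factors or upper-quartile factors, 107 when 1 CPM in at least 2 libraries was asked for, 34 with no filter, 327 with limma-voom and 1221 with the DESeq2 Wald test. It was 1 with library size alone, 1 with only the 4 libraries compared and 1 with the replicate block, and it ranged from 1 to 148 when single libraries were left out, 148 being without dsRNA 3 replicate 1. The cause was not tested.

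With library size alone the log2 fold change turned positive for Xpc (0.30), Klp10A (0.26), Prosbeta2 (0.0103), TfIIEalpha (0.0518), Chd1 (0.22), Bap111 (0.16), sbr (0.0081), IntS2 (0.0395), eff (0.31), Tak1 (0.0713), CYLD (0.0948), Uev1A (0.46), Fadd (0.42), akirin (0.22), SPE (0.10), Tl (0.23), Gapdh1 (0.0920), Pgk (0.34), p53 (0.31) and mys (0.14), and the median of all features moved to 0.62. Uev1A was also at 0.0266 with upper-quartile factors. A further 13 named genes kept their sign but lost their call with library size alone. Among them were CycD (-0.03, adjusted p 0.803), Dredd (-0.02, adjusted p 0.877), srp (-0.14, adjusted p 0.267) and Nelf-A (-0.25, adjusted p 0.0632). GNBP2 (-0.19, adjusted p 0.0785) and Pglym78 (-0.17, adjusted p 0.0509) were others. Leaving out single libraries put SPE between -0.86 and 0.0805, and PGRP-LE between -0.0051 and 0.34. No other named gene changed sign against control. With upper-quartile factors the rises and falls were 34 and 3 for the respiratory chain, 39 and 5 for mitochondrial ribosomal proteins, 19 and 3 for the nuclear pore, 18 and 8 for polymerase II, 12 and 3 for Polycomb and trithorax, 12 and 1 for repair, 7 and 3 for EGF receptor signalling, 5 and 3 for Integrator, 5 and 10 for the unfolded protein response, 5 and 7 for JNK, 6 and 7 for oxidant defence, and 4 and 16 for the proteasome. Phagocytic receptors had 3 and 2 when 1 CPM was asked for.

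Differences between replicates 1 and 2 correlated between groups at -0.0322, -0.0446 and 0.00344, so no effect shared by replicate number was seen. Samples paired without such an effect would give like values, so these do not tell whether the samples were paired. The block ended the call of CecC, Mitf and Hsp67Ba and of no other named gene against control. With 2 libraries a group, 3 residual degrees of freedom set the precision, and features under 1 CPM were called in 25.9% of cases, against 87.8% over 256 CPM.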
